A study of Sus scrofa with 6 samples.

Results

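The genes described here encode the BCL2 family proteins BCL2, BCL2L1, MCL1, BID, BAK1 and BNIP3 and the caspases CASP1, CASP8 and CASP9, read in the left ventricular (LV) free wall of doxorubicin (Dox)-injected and PBS-injected piglets. Members were all probe sets of the Affymetrix Porcine Genome Array whose single gene symbol in the platform annotation is one of these 9. A probe set is a group of short oligonucleotides read together as a single value. Of the 9 genes, 6 had such a probe set, and the 6 genes carried 9 of the 23999 probe sets tested. BCL2, BNIP3 and CASP9 had none under their symbols and are not analysed here.

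Dox is an anthracycline used against cancer that damages the heart as a side effect. The 3 animals of the Dox group were Large White piglets that received Dox once, intravenously, at 8 days of age and 2.0 mg/kg. The 3 animals of the PBS group were Large White piglets of the same age injected with the vehicle alone. LV tissue of both groups was taken 3 weeks after the injection, at 28 days of age by the sample labels. The study's methods give a dose range and ages that differ somewhat from these labels. Each array was hybridized with RNA of 1 animal, so the spread between arrays includes the spread between animals.

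BCL2 family proteins decide whether the outer mitochondrial membrane becomes permeable. BCL2, BCL2L1 and MCL1 hold the pore-forming proteins BAX and BAK1 in check, and BH3-only proteins such as BID release that check. Initiator caspases start the proteolytic cascade of apoptosis, CASP8 at death receptors and CASP9 at the apoptosome, whereas CASP1 is an inflammatory caspase. In cardiac muscle, loss of cardiomyocytes by apoptosis is a well known effect of anthracyclines, and deletion of Mcl1 in the mouse heart leads to heart failure.

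Each value is a MAS5 signal, a linear intensity that the authors computed for every probe set from the scanned arrays. The median signal over the probe sets tested lay between 13.5 and 15.6 on the Dox arrays and between 16.8 and 17.8 on the PBS arrays. A log2 difference is given here as Dox minus PBS, so that a positive value means a higher signal in Dox-injected piglets. The array also holds Tag sets, synthetic sequences that match no pig transcript. Their top signal lay between 3.1 and 5.5 on the Dox arrays and between 2.5 and 6.3 on the PBS arrays, and a signal no higher than the top Tag signal of its array is described as in the Tag range. The array controls spiked in at hybridization had higher signals on every Dox array than on every PBS array at 27 of 27 probe sets, with a median log2 difference of 0.49. The 3'/5' ratio of actin, a measure of RNA integrity, was between 2.20 and 6.04 on the Dox arrays and between 1.96 and 2.63 on the PBS arrays. Dox replicate 1 stood apart, with the actin ratio of 6.04 and an EF1a ratio of 11.6, against EF1a ratios of 4.27 and 4.30 on the other Dox arrays and of 4.24 to 4.86 on the PBS arrays. Cardiomyocyte markers were bright on all arrays, with summed signals of 12 measured genes between 68664 and 88613 in Dox-injected and between 56455 and 67766 in PBS-injected piglets.

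None of the 9 probe sets of the BCL2 family and caspase genes passed the test of a difference between the groups. A call needed at least a 2-fold difference and an adjusted p from limma no larger than 0.05, and 0 of the 9 were called, beside 0% of all probe sets on the array. A difference is described as nominal where its limma p before adjustment was 0.05 or less. Of the 9, 0 were nominally higher and 0 nominally lower in Dox-injected piglets, beside 3.62% and 5.92% of all probe sets. Of the 9, 4 had a log2 difference above 0 and 5 below 0, and their median was -0.13 against -0.10 over all probe sets. The signals of the groups did not overlap for 1 of the 9, MCL1, which was higher in Dox-injected piglets. Over the whole array 6.19% of the probe sets were higher and 10.1% lower without overlap. With the signals as deposited, the 95% confidence interval excluded both a doubling and a halving for 4 of the 9, against 26.2% of all probe sets. These were the MCL1 set, 1 BCL2L1 set and both BID sets. For the other 5 sets a change of 2-fold in 1 or both directions was within the interval.

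**Figure D1:**
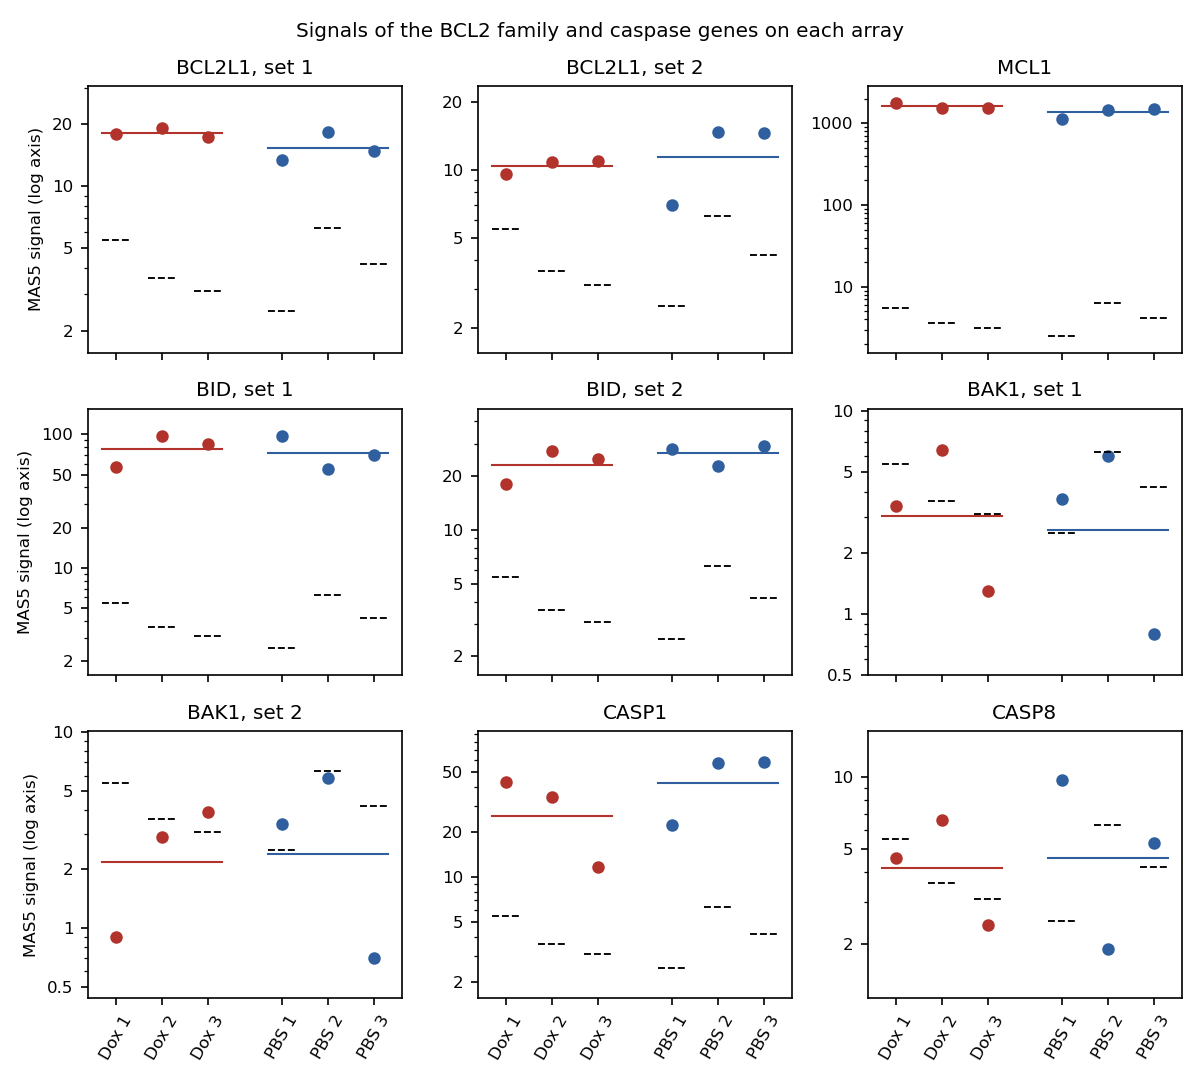
MAS5 signal (log axis) of the 9 probe sets on each of the 6 arrays, with Dox-injected piglets in red on the left and PBS-injected piglets in blue on the right; a coloured line is the geometric mean of a group (n = 3), and a black dash is the top of the Tag range on that array. Where a gene has more than 1 probe set, set 1 is the brighter. Only the MCL1 signals of the groups do not overlap, by 1523.4 in Dox replicate 3 against 1512.7 in PBS replicate 3, and of the BAK1 and CASP8 sets 3 or 4 points each lie at or below the dash of their array.

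MCL1 is a short-lived antiapoptotic protein that binds BAK1 and BH3-only proteins. The brighter BCL2L1 set had smaller SDs of log2 signal than MCL1 (0.074 against 0.125 in Dox-injected, 0.234 against 0.240 in PBS-injected piglets). MCL1 had the narrowest limma interval of these genes, from a fit whose error estimate also uses the signal level. Its probe set, Ssc.13766.1.A1_at, had signals of 1783.3, 1546.1 and 1523.4 in Dox-injected piglets and of 1118.3, 1469.2 and 1512.7 in PBS-injected piglets. All 3 Dox signals lay above all 3 PBS signals, but Dox replicate 3 and PBS replicate 3 were close to each other, and PBS replicate 1 stood well below the others. The mean signal was 1618 ± 144 (SD, n = 3) in Dox-injected and 1367 ± 216 (SD, n = 3) in PBS-injected piglets. The log2 difference was 0.25 (standard error 0.18), a ratio of 1.19 with a 95% confidence interval from 0.903 to 1.57. This difference did not pass the test (limma adjusted p = 0.633; exact permutation test, two-sided p = 0.1, the smallest p that 3 animals against 3 can give). Without PBS replicate 1 the log2 difference was 0.11. Without Dox replicate 1, the array with the highest actin and EF1a ratios and the highest MCL1 signal, it was 0.18. The loss of an array cannot make groups overlap that did not overlap before, so the separation was not put to a test here. The part of RNA integrity in the MCL1 difference was not tested.

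The separation of the MCL1 signals depended on the scaling of the arrays. With quantile normalization the log2 difference was 0.11 and with cyclic loess normalization 0.14, and in both cases the groups overlapped. When the arrays were scaled to the hybridization controls instead, the difference was -0.21, so that its direction turned. That scaling shifts all probe sets of an array by the same amount, and it moved the median over all probe sets to -0.57. The position of MCL1 relative to this median therefore could not change. Neutrophils, which depend on MCL1 for survival, are a cell type whose markers differed between the same arrays. Of 8 neutrophil markers 5 were measured and 4 were higher in every Dox-injected than in every PBS-injected piglet, beside the 6.19% of all probe sets, with summed signals of 78.6, 1017 and 261 in Dox-injected and of 19.5, 19.6 and 34.1 in PBS-injected piglets. S100A9 alone had 56.9, 681.5 and 185.9 of these Dox sums. Of the other higher markers, S100A12 was in the Tag range on 4 of 6 arrays, and S100A8 and LTF on 2 of 6 each. ELANE, a granule protease of immature neutrophils, was in the Tag range on 6 of 6 arrays. The part of neutrophils in the MCL1 signal was not tested. In RNA from whole tissue, fewer cells of a type and less RNA per cell cannot be told apart.

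BCL2L1 encodes Bcl-xL, a protein of the outer mitochondrial membrane that sequesters BAX, BAK1 and BH3-only proteins. Its brighter probe set, Ssc.16334.1.S1_at, had signals of 17.8, 19.1 and 17.3 in Dox-injected piglets and of 13.4, 18.4 and 14.8 in PBS-injected piglets. A single PBS signal, that of replicate 2, lay within the narrow Dox range, and the other PBS signals lay below it. The log2 difference was 0.23 (standard error 0.32, 95% confidence interval from -0.51 to 0.97, limma adjusted p = 0.822; exact permutation test, p = 0.3). The other set, Ssc.16334.1.S2_at, had signals of 9.6, 10.9 and 11 in Dox-injected piglets and of 7, 14.7 and 14.6 in PBS-injected piglets. Here the Dox signals lay between PBS replicate 1 and the other PBS replicates, and the log2 difference was -0.13 (standard error 0.43, 95% confidence interval from -1.10 to 0.84, limma adjusted p = 0.931; exact permutation test, p = 1).

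The sets of BCL2L1 thus had differences of opposite sign, neither of them beyond its error. Both shared a narrower spread in Dox-injected piglets, with an SD of 0.929 in Dox-injected and 2.58 in PBS-injected piglets at the brighter set and of 0.781 in Dox-injected and 4.42 in PBS-injected piglets at the other, but with 3 animals a group the spreads themselves were not tested. In both sets PBS replicate 1 had the lowest of the 6 signals, as it had for MCL1. PBS replicate 1 was the lowest array for 3 of the 9 sets, the MCL1 set and both BCL2L1 sets, and for 15.5% of all probe sets. With 1 set per gene and the relatives described below added, it was the lowest for 3 of 16 genes. These were MCL1, BCL2L1 and BCL2L11, which encodes a BH3-only protein. The brighter BCL2L1 set did not overlap between the groups after quantile (0.46) or cyclic loess (0.45) normalization, with every Dox signal higher. Over the whole array 1860 and 1904 of 23999 probe sets were higher without overlap under these normalizations. The limma adjusted p of this BCL2L1 set was 0.670 and 0.677, and scaling to the hybridization controls gave -0.24.

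BID is the BH3-only protein that CASP8 cleaves to carry a death receptor signal to the mitochondria. Its brighter probe set, Ssc.19150.1.S1_s_at, has a suffix that Affymetrix gives to sets whose probes can match more than 1 transcript, so its signal may not come from BID alone. It had signals of 57.4, 97.3 and 84.6 in Dox-injected piglets and of 97.3, 54.9 and 70.6 in PBS-injected piglets. The groups covered nearly the same range and shared the same highest signal, in Dox replicate 2 and PBS replicate 1. The means were 79.8 ± 20.4 (SD, n = 3) in Dox-injected and 74.3 ± 21.4 (SD, n = 3) in PBS-injected piglets, and the log2 difference was 0.11 (95% confidence interval from -0.60 to 0.81, limma adjusted p = 0.918).

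The other BID set, Ssc.19150.1.S1_at, had signals of 17.9, 27.3 and 24.7 in Dox-injected piglets and of 28.3, 22.7 and 29.4 in PBS-injected piglets. Dox replicate 1 was the lowest and the remaining signals were interleaved. The log2 difference was -0.22 (standard error 0.31, 95% confidence interval from -0.93 to 0.50, limma adjusted p = 0.831; exact permutation test, p = 0.5). At both BID sets the lowest pair of signals was that of Dox replicate 1 and PBS replicate 2. For both sets the interval as deposited excludes a 2-fold difference in either direction. Under the hybridization control scaling the differences were -0.36 at the brighter and -0.68 at the other BID set, and the exclusion is not claimed there. The sign of each set depended on the scaling or on single arrays.

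BAK1 forms pores in the outer mitochondrial membrane once it is released from MCL1 and Bcl-xL. The brighter probe set, Ssc.16343.1.A1_at, had signals of 3.4, 6.4 and 1.3 in Dox-injected piglets and of 3.7, 6 and 0.8 in PBS-injected piglets. The other set, Ssc.16343.1.S1_at, had signals of 0.9, 2.9 and 3.9 in Dox-injected piglets and of 3.4, 5.8 and 0.7 in PBS-injected piglets. Each set was in the Tag range on 4 of 6 arrays, so most of these signals were not distinct from those of sequences without a pig target. The log2 differences of 0.22 and -0.15 had 95% confidence intervals from -1.86 to 2.31 and from -2.29 to 2.00, with adjusted p of 0.942 and 0.964 from limma. A difference in BAK1 was therefore not detectable at this signal, and a low signal does not show that the transcript is absent.

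CASP8, the initiator caspase recruited to death receptors through FADD, was likewise dim. Its probe set, Ssc.31212.1.S1_at, had signals of 4.6, 6.6 and 2.4 in Dox-injected piglets and of 9.7, 1.9 and 5.3 in PBS-injected piglets, in the Tag range on 3 of 6 arrays. The PBS signals spanned the whole Dox range. The log2 difference was -0.14 (standard error 0.72, 95% confidence interval from -1.77 to 1.49, limma adjusted p = 0.953; exact permutation test, p = 0.9).

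CASP1 cleaves the precursors of interleukin 1 beta and interleukin 18 and the pore-forming protein gasdermin D. It had the largest difference of the 9 sets, and also the widest interval among the 6 sets above the Tag range on every array. Its probe set, Ssc.16012.1.S1_at, had signals of 43.1, 34 and 11.6 in Dox-injected piglets and of 22.2, 57.5 and 58.4 in PBS-injected piglets. PBS replicate 2 and PBS replicate 3 lay above all Dox signals, Dox replicate 3 lay below all others, and PBS replicate 1 lay among the Dox signals. The mean signal was 29.6 ± 16.2 (SD, n = 3) in Dox-injected and 46 ± 20.6 (SD, n = 3) in PBS-injected piglets. The log2 difference of -0.71 (standard error 0.57, 95% confidence interval from -2.01 to 0.59) did not pass the test (limma adjusted p = 0.677; exact permutation test, p = 0.5).

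The size of the CASP1 difference rested on single animals. Without Dox replicate 3 it was -0.14, and without PBS replicate 1 it was -1.17 (limma, unadjusted p = 0.080, adjusted p = 0.823). The CASP1 groups did not overlap without PBS replicate 1. Over the whole array 3461 of 23999 probe sets were then lower without overlap, against 2431 on all 6 arrays. The sign of the CASP1 difference was negative in 15 of 15 alternatives. Some of these, such as the replicate block, leave the estimate at -0.71 and could not change its sign. Under the hybridization control scaling, which shifts all probe sets of an array alike, it was -1.18, beside a median over all probe sets of -0.57. CASP1 is expressed in macrophages and other leukocytes, and of 12 markers of these cells 9 were measured, 6 with a log2 difference above 0 and 3 below 0. Their summed signals lay between 632 and 786 in Dox-injected and between 491 and 651 in PBS-injected piglets, and PTPRC, the pan-leukocyte antigen CD45, was in the Tag range on 5 of 6 arrays. AIF1 and CD74, of macrophages and antigen-presenting cells, had log2 differences of -0.63 and -0.65, and CD163, a scavenger receptor of resident macrophages, had one of 0.57. The part of leukocyte numbers in the CASP1 signal was not tested.

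**Figure D2:**
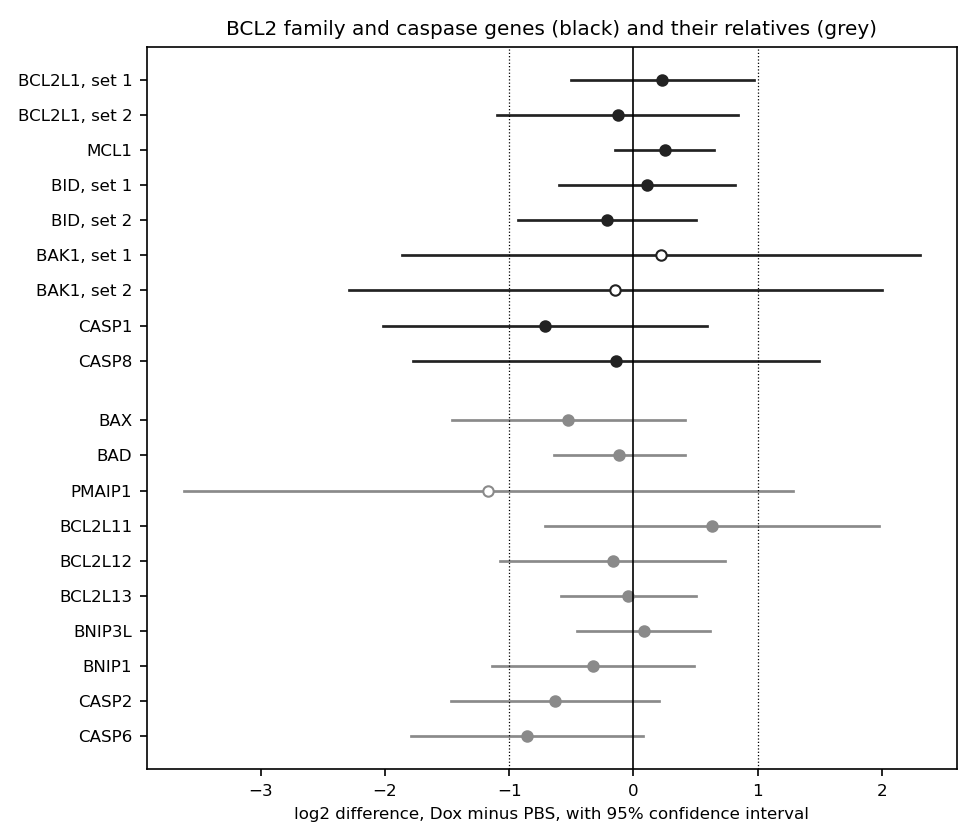
Log2 difference (Dox minus PBS) with 95% confidence interval from limma for the 9 probe sets (black) and for the brightest set of each related gene (grey); open circles are sets in the Tag range on 4 or more arrays, and dotted lines mark a halving and a doubling. All 9 intervals of the black sets contain 0, from MCL1, the narrowest, to the BAK1 sets, the widest at -2.29 to 2.00 and -1.86 to 2.31.

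Every gene with more than 1 probe set had differences on both sides of 0. For BCL2L1 they were 0.23 and -0.13, for BID 0.11 and -0.22, and for BAK1 0.22 and -0.15, in each case with the brighter set above 0. Each BAK1 set was in the Tag range on 4 of 6 arrays. When each gene was read at its brightest set alone, the median of the 6 genes was 0.17, against -0.13 over the 9 sets. The direction of the median therefore followed the choice of probe set, and no direction is read from it.

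**Figure D3:**
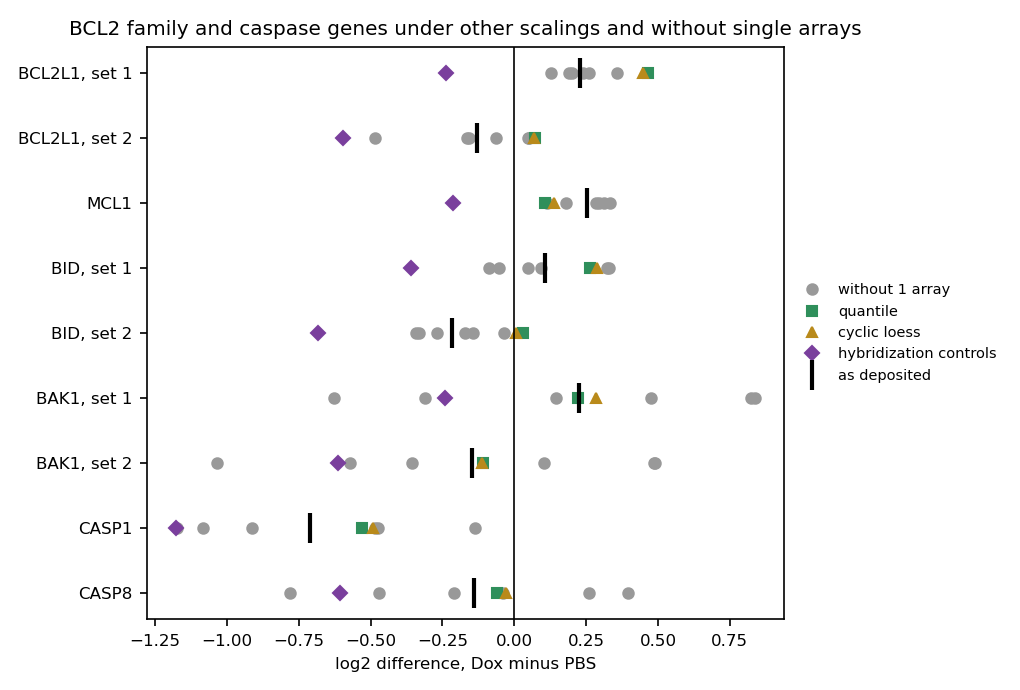
Log2 difference (Dox minus PBS) of the 9 probe sets as deposited (black bars), after quantile (green squares) or cyclic loess (yellow triangles) normalization, after scaling to the hybridization controls (purple diamonds), and without each array in turn (grey circles). CASP1 is the only set with every mark on the same side of 0, from -1.18 to -0.14, and the purple diamonds lie to the left for all sets, as the median over all probe sets does at -0.57.

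Relatives of these genes were read to see whether the family as a whole differed. Of 20 other BCL2 family genes 8 were measured, 2 above 0 and 6 below 0 in their log2 difference, and 0 differed nominally. Their median was -0.14, and it was 0.04 with quantile and 0.05 with cyclic loess normalization. BAX, the other pore-forming effector, had signals of 14.3, 10.6 and 12 in Dox-injected piglets and of 19.9, 24.9 and 10.9 in PBS-injected piglets, with PBS replicate 3 within the Dox range (log2 difference -0.52, limma adjusted p = 0.672). BCL2L11, which encodes the BH3-only protein BIM, had signals of 17.3, 6.5 and 22.8 in Dox-injected piglets and of 5.3, 14.8 and 8.8 in PBS-injected piglets. Its log2 difference was 0.63 at this set (limma adjusted p = 0.719), 0.26 without Dox replicate 3 or PBS replicate 1, and -0.64 at a second, dim set, the same disagreement between sets as in BCL2L1, BID and BAK1. BNIP1, a BH3-containing protein of the endoplasmic reticulum, had a log2 difference of -0.33. BNIP3L, the closest relative of BNIP3 and a mitophagy receptor named here after its values were seen, had differences of 0.08 and -0.01 at its sets, with a 95% confidence interval from -0.45 to 0.62 at the brighter, and -0.38 there under the hybridization control scaling.

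Of 10 other caspases, CASP2 and CASP6 had a probe set under their symbols. CASP6, an executioner caspase that cleaves lamin A, had signals of 122.3, 98.6 and 38.1 in Dox-injected piglets and of 156.7, 133.3 and 130.8 in PBS-injected piglets. All Dox signals were below all PBS signals, with Dox replicate 3 far below the others, and the log2 difference was -0.86 (standard error 0.41, limma adjusted p = 0.54; exact permutation test, p = 0.1), and -0.35 without Dox replicate 3. The second CASP6 set had a log2 difference of -1.50 with overlapping groups, and there too Dox replicate 3 was the lowest, at 1 against 15 and 18 in its group. CASP2, an initiator caspase that responds to DNA damage and mitotic failure, had signals of 70, 72.3 and 35.3 in Dox-injected piglets and of 126.9, 73.2 and 71.2 in PBS-injected piglets, a log2 difference of -0.63 (limma adjusted p = 0.589), but -0.29 without Dox replicate 3 and 0.15 at its second set. Dox replicate 3 had the lowest signal for 6 of the 16 BCL2 family and caspase genes read at their brightest sets, against 29.7% of all probe sets. PBS replicate 1 had the highest for 7 of the 16, against 22.0% of all. Among the 16 genes 0 differed nominally, 1 was higher without overlap (MCL1, beside the 6.19% above) and 1 lower (CASP6, beside the 10.1%).

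The genes upstream of CASP8 did not differ in a common direction. Of 18 death receptor, ligand and adaptor genes 10 were measured, 5 above 0 and 5 below 0, with a median of 0.00. FADD, the adaptor that binds CASP8, had a log2 difference of -0.54 (limma adjusted p = 0.638), and -0.21 without Dox replicate 2, and FAS, a receptor that recruits both, had one of 0.74 (limma adjusted p = 0.586) at signals of 7, 11.5 and 10.2 in Dox-injected piglets and of 6.6, 5.4 and 4.9 in PBS-injected piglets, in the Tag range on 1 of 6 arrays. TNFRSF21, death receptor 6, was the only gene of this list that differed nominally, with a difference of -0.47 (limma adjusted p = 0.523). Of all probe sets, 5.92% were nominally lower. CFLAR, the inhibitor of CASP8 activation, named after its values were seen, had a difference of 0.08 with a 95% confidence interval from -0.39 to 0.56, which was -0.38 under the hybridization control scaling.

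Around the mitochondrial step at which BID and BAK1 act, 13 genes of mitochondrial effectors and the apoptosome were listed and 10 measured, 3 above 0 and 7 below 0. Their median was -0.07, and with quantile or cyclic loess normalization 1 was above 0 and 9 below 0, with medians of -0.26 and -0.23. As deposited, 4 were nominally lower and 0 nominally higher, beside 5.92% and 3.62% of all probe sets. The same 4 were lower without overlap, beside 10.1%, and 1 was higher without overlap, beside 6.19%, the outer membrane channel VDAC2 at a log2 difference of 0.13, which was -0.08 with quantile and -0.06 with cyclic loess normalization. PPIF, cyclophilin D of the permeability transition pore, had signals of 650.6, 575.4 and 446.1 in Dox-injected piglets and of 1231.2, 881.7 and 780.4 in PBS-injected piglets, a log2 difference of -0.78. DNM1L, the mitochondrial fission GTPase, had a difference of -0.84, and AIFM1, a flavoprotein of the intermembrane space, one of -0.45. MTCH2, known in the mouse as a docking protein for cleaved BID at the mitochondrial membrane, was the fourth, at -0.57, and -0.31 without Dox replicate 3. VDAC2 and MTCH2 were named after their values were seen. DNM1L, AIFM1 and MTCH2 have 2 probe sets each and VDAC2 has 5, and only the brightest of each gene is given here. Each of the 4 lower genes had an adjusted p of 0.521 from limma, and the number of nominally lower genes in the list was 2 without Dox replicate 3 and 2 without each PBS array in turn. CYCS, the cytochrome c that leaves through the pores of BAK1 and BAX, likewise named after its values were seen, had a difference of -0.02 with a 95% confidence interval from -0.84 to 0.80.

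Of 16 genes of inhibitor of apoptosis proteins and partners of the BCL2 family, 8 were measured, 4 above 0 and 4 below 0. BIRC5, which encodes survivin, had signals of 17, 18.4 and 14.2 in Dox-injected piglets and of 116.9, 44.1 and 42.2 in PBS-injected piglets, a log2 difference of -1.87 (limma adjusted p = 0.521). Survivin is also a mitotic protein. Of 5 proliferation markers 3 were measured, TOP2A, CCNB1 and PCNA. All 3 were lower in every Dox-injected than in every PBS-injected piglet as well, beside 10.1% of all probe sets. Their summed signals lay between 242 and 315 in Dox-injected and between 481 and 1139 in PBS-injected piglets. The part of dividing cells in the BIRC5 signal was not tested. TPT1, which encodes a protein that binds MCL1, had a difference of 0.38 (limma adjusted p = 0.521) with every Dox signal above every PBS signal, as for MCL1. It was 0.03 with quantile normalization, where the groups overlapped, 0.10 with cyclic loess normalization and -0.09 under the hybridization control scaling. FAIM, an inhibitor of FAS signalling, had a difference of -0.74 (limma adjusted p = 0.601), and -0.26 without Dox replicate 3. Among caspase substrates 5 of 9 were measured, 1 above 0 and 4 below 0, and SPTAN1, LMNB1 and ROCK1 had differences of -0.74, -1.65 (-0.98 without PBS replicate 1) and -0.27. SPTAN1 and LMNB1 were nominally lower (limma adjusted p = 0.521 for each), beside 5.92% of all probe sets. Transcript levels do not report the cleavage of these proteins.

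The partners of CASP1 did not pass the test either. Of 14 inflammasome genes 5 were measured, 2 above 0 and 3 below 0, and 0 differed nominally. IL18, a substrate of CASP1, had signals of 25.2, 10.3 and 7.4 in Dox-injected piglets and of 30.3, 14 and 28.3 in PBS-injected piglets (log2 difference -0.88, limma adjusted p = 0.598). As for CASP1, Dox replicate 3 was the lowest array. GSDMD, which encodes gasdermin D, had a difference of -0.22, which was 0.01 with quantile normalization. IL1R1, a receptor of interleukin 1, had a difference of 0.31, which rested on Dox replicate 3 at 90.7 against 14.7 and 24.1 in its group. It was -0.45 without that array and -0.16 under the hybridization control scaling.

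BNIP3 acts in mitophagy and is induced by hypoxia, and although no probe set carries its symbol alone, the genes around it were measured. Of 16 mitophagy genes 10 had a probe set under their symbols, 9 above 0 and 1 below 0, with a median of 0.43. Of these, 4 were nominally higher and 0 nominally lower, beside 3.62% and 5.92% of all probe sets, and 6 were higher without overlap, beside 6.19%. GABARAPL1, a protein of the autophagosome membrane, had signals of 796, 1294.6 and 1392.1 in Dox-injected piglets and of 374.3, 566.4 and 674.8 in PBS-injected piglets, a log2 difference of 1.11. SQSTM1, the autophagy receptor p62, had a difference of 0.81, MAP1LC3B one of 0.53 and GABARAP, named after its values were seen, one of 0.40, which was -0.07 under the hybridization control scaling. Each of these 4 had an adjusted p of 0.521 from limma. The count above 0 was 9 of 10 without each array in turn and with quantile or cyclic loess normalization, where the medians were 0.28 and 0.32, but 5 of 10 with a median of -0.03 under the hybridization control scaling. Of 21 hypoxia-responsive genes 13 were measured, 5 above 0 and 8 below 0. Of these, 1 was nominally higher and 0 nominally lower, beside 3.62% and 5.92% of all probe sets. The nominally higher gene was VEGFA, with a difference of 0.51 at the brightest of its 4 sets (limma adjusted p = 0.521). LDHA and EGLN1 had differences of -0.89 and -0.67, neither of them nominal. Both were smaller once a single array was left out, LDHA at -0.30 without PBS replicate 1, whose 1907.9 exceeded the 646.9 and 488.1 of the other PBS arrays, and EGLN1 at -0.25 without Dox replicate 3, whose 264.3 was below the 741.2 and 528.3 of the other Dox arrays.

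**Figure D4:**
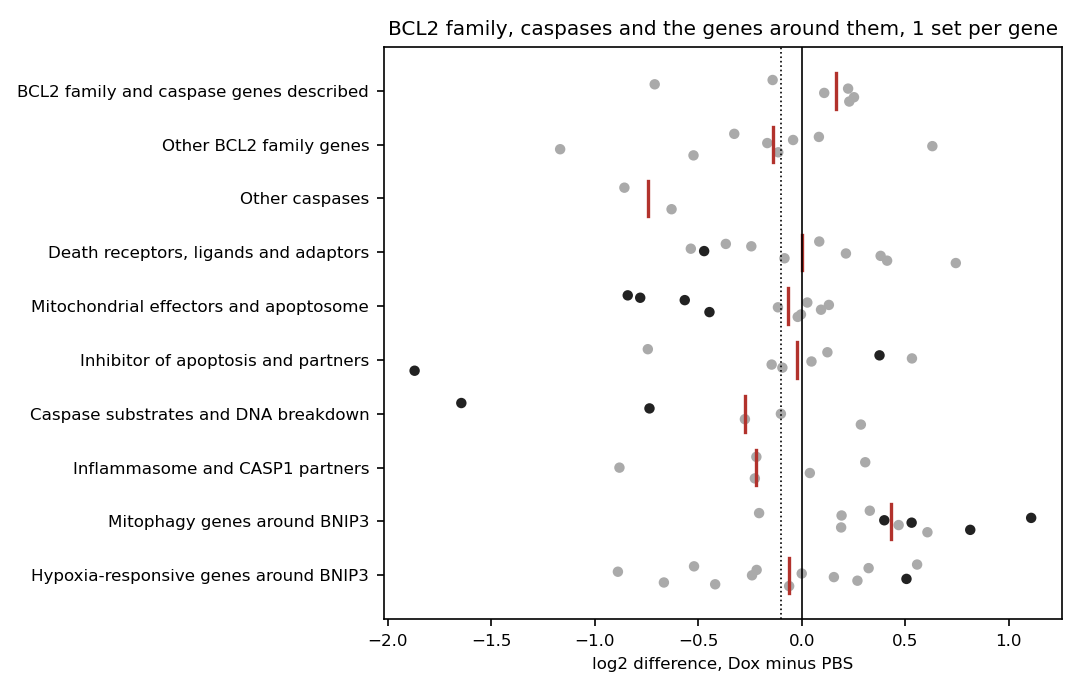
Log2 difference (Dox minus PBS) of each measured gene at its brightest probe set, by list; black points differed nominally, red bars are medians, and the dotted line is the median over all probe sets at -0.10. No point of the top 3 lists, the BCL2 family and the caspases, is black, and the mitophagy genes have 9 of 10 points above 0.

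Markers of some other cell types of the LV wall also had different signals on the Dox and PBS arrays, although 0 were called. Smooth muscle and pericyte markers had 4 of 6 measured genes above 0, with a median of 0.15, and 0 differed nominally. Fibroblast markers had 0 of 6 measured genes above 0, with a median of -1.01 and summed signals between 916 and 2710 in Dox-injected and between 2778 and 4606 in PBS-injected piglets. Endothelial markers had 2 of 8 genes above 0 and a median of -0.61, with sums between 1308 and 1392 in Dox-injected and between 1474 and 2214 in PBS-injected piglets. Cardiomyocyte markers had 11 of 12 genes above 0 with a median of 0.30, which was -0.04 with quantile and 0.02 with cyclic loess normalization, under which the MCL1 signals of the groups also overlapped. Lymphocyte markers were mostly in the Tag range. The part of the makeup of the tissue in the signals of the BCL2 family and caspase genes was not tested.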

How the data were processed

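RNA of the LV free wall was measured on 6 arrays, 3 of the Dox and 3 of the PBS group. The deposited values are intensities, MAS5 signals that the authors computed with GCOS 1.4 (submitters' processing notes) at default settings. Groups and replicate numbers came from the sample titles. The table holds 24123 probe sets, and 124 array controls were left out. Signals of 0 (311 probe sets) were raised to 0.1 before log2 was taken. Dox was compared with PBS in limma 3.58.1 under R 4.3.3 (lmFit, eBayes with an intensity trend), and p-values were adjusted by Benjamini-Hochberg over all 23999 remaining sets. For the arrays the study's methods cite the statistical algorithms of the Affymetrix Microarray Suite, and for comparisons of groups in general an unpaired Student test, which was run as an alternative. The call threshold, an adjusted p up to 0.05 with a fold of 2 or more, is that of the study's methods. Members were compared by an exact permutation test as well, two-sided. The fit was tested on simulated data.

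Of the probe sets tested, 10069 carry 1 gene symbol, 198 several and 13732 none. For each member every probe set is given. Other genes were read at their brightest set by geometric mean, and of each list up to 3 genes with the smallest nominal p are named, among those outside the Tag range on at least 3 arrays. The members and lists were chosen with earlier results of these data known. Alternatives tried were 2 other normalizations (quantile, cyclic loess), an offset of 16, no dim sets, eBayes with no trend, array weights, a replicate block, that test (the methods' t-test), 1 set per gene, the ratio of arithmetic means and the loss of each array in turn; scaling to the hybridization controls was chosen after seeing the data. No p-value refers to a list. The number of arrays limits the precision. Coordinates and sequences were not used here. Python 3.11.15 with matplotlib 3.10.9 drew the figures.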

Additional observations from a re-analysis of the deposited data

Results flagged for a closer look

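The hybridization controls, bacterial and phage transcripts that are added to the hybridization mix and were left out of the comparison, had higher signals on all Dox arrays than on all PBS arrays at 27 of 27 probe sets. Their log2 differences ranged from 0.33 to 0.63. Their geometric means were 974, 908 and 1259 on the Dox arrays and 712, 758 and 782 on the PBS arrays. The values of the BCL2 family and caspase genes scaled to these controls are given with the other alternatives.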

How the results depend on the processing

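Under every alternative run, 0 probe sets of the BCL2 family and caspase genes were called and 0 differed nominally (a limma or t-test p of 0.05 or less before adjustment). The whole-array count of calls, 0 as deposited, ranged from 0 to 14 when 1 array was left out, with 14 only without Dox replicate 1. The number of these probe sets without overlap, 1 as deposited, ranged from 1 to 3 with 1 array left out and was 0 under the hybridization control scaling. The loss of an array cannot lower this number, and over the whole array the counts rose as well. They were 1485 higher and 2431 lower as deposited, 2261 and 3461 without PBS replicate 1, and 2392 and 3615 without PBS replicate 2. For the BCL2 family and caspase genes the number was 3 without PBS replicate 1 (MCL1 higher, CASP1 and a BCL2L1 set lower). It was also 3 for these genes without PBS replicate 2 (MCL1 and a BCL2L1 set higher, a BID set lower). Their median of -0.13 was 0.072 with quantile and 0.069 with cyclic loess normalization, 0.11 without dim sets, 0.17 with array weights, 0.17 with 1 set per gene, -0.59 under the hybridization control scaling and between -0.31 and 0.14 with 1 array left out. Differences that turned were those of Ssc.16334.1.S2_at for BCL2L1 (0.072 with quantile, 0.069 with cyclic loess, -0.48 to 0.052 with 1 array left out), Ssc.19150.1.S1_at for BID (0.029 with quantile, 0.0075 with cyclic loess), Ssc.16343.1.S1_at for BAK1 (0.14 with array weights, -1.03 to 0.49 with 1 array left out) and CASP8 (0.46 with array weights, -0.78 to 0.40 with 1 array left out). The hybridization control scaling turned MCL1 (-0.21), the brighter sets of BCL2L1 (-0.24), BID (-0.36, and -0.090 to 0.33 with 1 array left out) and BAK1 (-0.24, and -0.63 to 0.84). The cause was not tested. Over the whole array 869 probe sets were nominally higher and 1421 nominally lower, against 1072 and 1089 with quantile, 1063 and 1062 with cyclic loess and 184 and 4729 under the hybridization control scaling. Leaving out dim probe sets removed both BAK1 sets, CASP8 and the dimmer BCL2L1 set, which then have no value. Same-numbered animals did not deviate together (correlations of -0.01, 0.02 and -0.06), and with the replicate block 0 probe sets were called, 866 were nominally higher and 1447 nominally lower, and the differences of these genes were the same.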
